A study of Mus musculus with 6 samples.

Results

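Nfasc and Ank3 encode 2 partners of the scaffold that holds ion channels at the node of Ranvier. Their m6A-enriched regions were chosen by position: peaks of 3 deposited lists whose summit lay in a window around Nfasc (chr1:134460000-134640000, 180001 bases) or Ank3 (chr10:68861000-69491000, 630001 bases), both on mm9. Peaks sharing at least 1 base were merged across lists, which gave 37 regions, 13 at Nfasc and 24 at Ank3, of 43377 regions in the genome. The samples were 3 immunoprecipitated libraries (m6A IP 1, 2 and 3) and 3 input libraries, made from polyadenylated RNA of the whole mouse brain, and each IP was set against 1 input. N6-methyladenosine (m6A) is a methyl mark on adenosines inside mRNA, and m6A-seq sequences the RNA fragments bound by an antibody against it. The labels name no strain, age, sex, genotype or treatment. The peak files' headers bear the run name M14ctl, which no label explains, and no genotype was read from it. The labels do not say whether each replicate was a separate animal, so SDs measure the spread between these samples, which may be technical. The p-values rest on the same 3 lists and reach no further than these samples. The lists carry no gene names, and the tissue label was not checked against marker genes.

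Nodes of Ranvier are the short gaps between stretches of myelin at which sodium channels are packed and the action potential is renewed. Neurofascin, the product of Nfasc, is a cell adhesion molecule of the L1 family made in different splice forms: a neuronal form sits in the nodal and axon initial segment membrane, and a glial form made by oligodendrocytes sits in the paranodal loops, where it binds the axonal contactin and Caspr complex. Ankyrin-G, the product of Ank3, is the adaptor that binds the cytoplasmic tail of neuronal neurofascin and the sodium channels, and ties both to the spectrin skeleton. Ank3 is also spliced into several forms, among them giant neuronal ones that carry a very large extra exon. In whole brain, RNA of neurons and of oligodendrocytes is mixed, so fewer cells of a type and less RNA per cell cannot be told apart.

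After removal of duplicates, the IP libraries held 5676427 to 6493926 tags and the inputs 7185922 to 11589632. The lists held 32858, 32671 and 24686 peaks in m6A IP 1, 2 and 3, of which 11, 8 and 7 lay in the Nfasc window and 14, 19 and 9 in the Ank3 window. The GENCODE annotation at hand is on GRCm38, so none of its coordinates was compared with the lists, and which exon, intron or UTR lies under a region was not analysed here. From that annotation were taken the strand and the length of the gene models: Nfasc lies on the reverse strand and spans 177108 bases, and Ank3 lies on the forward strand and spans 628666 bases. The 5′ side of the Nfasc window is therefore its high-numbered end.

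Both genes carried m6A enrichment that recurred in each brain library. Of the 13 Nfasc regions, 5 recurred in all 3 lists, a share of 38.5% with a Wilson 95% interval of 17.7 to 64.5. Of the 24 Ank3 regions, 6 recurred in all 3, a share of 25% (interval 12 to 44.9). Over the genome, 38.6% of the merged regions were found in all 3 replicates, a share inside both intervals. The intervals take regions as independent, although neighbours at Ank3 lay as close as 17 bases, so they are descriptive and no test against the genome. A further 2 Nfasc regions and 6 Ank3 regions were found in 2 replicates, 15.4% and 25%, against 22.6% of all regions. Regions found in 1 replicate numbered 6 at Nfasc and 12 at Ank3, 46.2% and 50%, against 38.8% of all regions. At Nfasc 4 of these 6 came from m6A IP 1, and at Ank3 8 of the 12 came from m6A IP 2. The lists differ in length, m6A IP 3 being the shortest. The share of each list among all regions found in 1 replicate was not computed, so these counts say nothing particular to the genes. The windows, introns included, held 7.22 regions per 100 kb at Nfasc and 3.81 at Ank3. The regions covered 0.938% and 0.404% of the window. Median region lengths were 89 and 87.5 bases, against 103 bases over the genome.

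At Nfasc the highest pileups, though not the highest folds, lay at the 3′ side of the gene. A pair of regions lay there, 500 bases apart and together 1293 bases long, 5.91 and 6.85 kb from the 3′ edge of the window. The first, chr1:134465910-134466352 (443 bases), had pileups of 47, 46 and 44 IP tags in m6A IP 1, 2 and 3, a mean of 45.7 ± 1.53 (SD, n = 3). The pileup is the number of IP tags over the peak summit. The second, chr1:134466853-134467202 (350 bases), had pileups of 42, 47 and 40 tags, a mean of 43.0 ± 3.61 (SD, n = 3). Both regions were high in every library: among the 16757 regions found in all 3 replicates, 97.4% and 94.96% had a lower mean pileup.

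The same pair had low folds over a high input. The deposited fold is pileup over local input background, each with 1 added, as the authors' caller computed it. It was 2.15, 2.91 and 2.44 for the first region (mean 2.50 ± 0.388, SD, n = 3) and 2.64, 2.54 and 2.01 for the second (mean 2.40 ± 0.338). Only 2.24% and 1.52% of the recurrent regions of the genome had a lower mean fold. The background recovered from pileup and fold, in input tags scaled to the IP, was 21.4, 15.1 and 17.5 for the first and 15.3, 17.9 and 19.4 for the second. At most 1 tag per position was kept, which limits 50-base tags to a pileup of 50 on 1 strand and 100 on both. The highest pileups of the lists were 95, 96 and 92, and the strand of the tags under this pair was not analysed here.

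Further towards the 5′ side, 3 more Nfasc regions recurred, each short and over a lower input. The region chr1:134562093-134562160 (68 bases, 77.8 kb from the 5′ edge) had the highest mean fold of all recurrent regions in both genes. Its pileups were 26, 31 and 26 tags, a mean of 27.7 ± 2.89 (SD, n = 3), so the libraries hardly differed. Its folds were 3.43, 5.84 and 9.78, a mean of 6.35 ± 3.20 (SD, n = 3). The background beneath it fell in the same order, from 9 input tags in m6A IP 1 and 8 in m6A IP 2 to 2 in m6A IP 3 before scaling. The folds at this position rest on few input tags, and 71.0% of the recurrent regions had a lower mean fold.

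The most 5′ of the recurrent Nfasc regions, chr1:134603722-134603841 (120 bases, 36.2 kb from the 5′ edge), had pileups of 28, 25 and 16 tags, a mean of 23.0 ± 6.25 (SD, n = 3). The lowest and highest libraries have 95% exact Poisson intervals of 9.15 to 26.0 and 18.6 to 40.5, which overlap and cover counting error only. Its folds were 5.20, 3.14 and 3.76, a mean of 4.03 ± 1.06. The region chr1:134484744-134484845 (102 bases) had the lowest pileups of the 5, 20, 21 and 17 tags, and folds of 2.67, 2.34 and 3.33. In m6A IP 2 its −log10 q was 1.41, just above the 1.30 at which the authors' caller stopped, so its recurrence rests on a peak at the threshold.

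**Figure D1:**
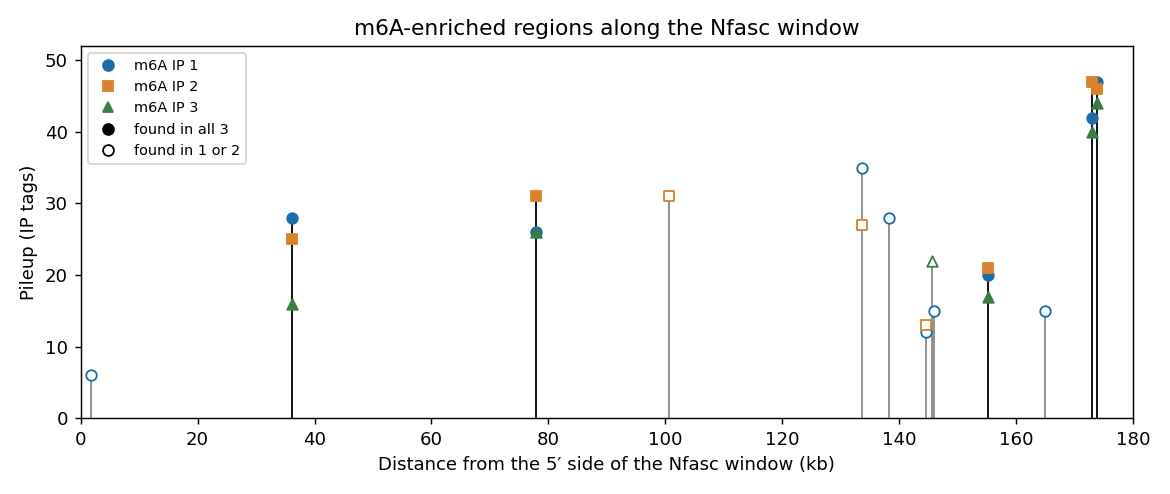
Pileup in IP tags (vertical axis) of every m6A-enriched region against its distance in kb from the 5′ side of the Nfasc window (horizontal axis). Symbols stand for the 3 IP libraries, filled where the region was found in all 3, and the pair near the 3′ side reaches 40 to 47 tags in each library.

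The other 8 Nfasc regions were found in 1 or 2 libraries, with pileups of 6 to 35 tags, folds of 2.19 to 6.08 and −log10 q of 1.44 to 6.31. The strongest by q, chr1:134475079-134475134, was found in m6A IP 1 at 15 tags and a fold of 5.57. A pair of regions was shared by m6A IP 1 and 2. One, chr1:134506379-134506467, stood at 35 and 27 tags with its summit at the same base, 134506401, in both lists. The other, chr1:134495308-134495403, stood at 12 and 13 tags. The region nearest the 5′ side, chr1:134638250-134638319, lay 1.68 kb from the window edge and was found in m6A IP 1 at 6 tags. Its background was the genome average of 0.152 tags, so its fold of 6.08 rests on 6 IP tags and on the caller's floor for the input. In all, 9 of the 13 Nfasc regions, and 3 of the 5 recurrent ones, lay within 50 kb of the 3′ edge, a distance that takes up 27.8% of the window. That share counts introns as well as exons, and whether the regions only follow the position of exons was not tested.

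At Ank3 the recurrent enrichment stood mostly in 1 short stretch towards the 3′ side. Of the 24 regions, 16 lay within 50 kb of the 3′ edge, as did 5 of the 6 recurrent ones, although 50 kb is 7.94% of this window. The distance of 50 kb was picked after the positions were seen. The share of the window counts introns as well as exons, whereas the RNA was polyadenylated. Exons were not placed, so whether the regions only follow the position of exons was not tested. No region lay within 50 kb of the 5′ edge, and the widest stretch without a region, 172324 bases, separated chr10:68996794-68997003 from the next region.

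The tallest Ank3 region was chr10:69452740-69453000 (261 bases), with pileups of 44, 41 and 39 tags, a mean of 41.3 ± 2.52 (SD, n = 3). Its summit fell on the same base, 69452885, in all 3 lists. Its folds were 4.79, 3.99 and 3.74, a mean of 4.17 ± 0.547, over 8.40, 9.53 and 9.69 scaled input tags. The 3 libraries were close together in both measures, and this was the Ank3 region with the highest −log10 q, 13.8 in m6A IP 1. The called peak was 260, 201 and 50 bases long, so with peaks required to share 50% of each other's length the region no longer counted as recurrent.

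A further 3 recurrent regions flanked it. The region chr10:69452321-69452537 had pileups of 34, 36 and 32 tags (mean 34 ± 2, SD, n = 3) and folds of 3.45, 2.90 and 2.65, with its 3 summits within 2 bases. The region chr10:69450280-69450474 had pileups of 32, 28 and 27 tags and folds of 3.31, 2.83 and 2.58. On the other side, chr10:69454011-69454109 had pileups of 39, 33 and 32 tags, and its folds of 4.17, 2.18 and 2.48 (mean 2.94 ± 1.07) set m6A IP 1 apart from the others. There the input differed more than the IP: the background was 8.59, 14.6 and 12.3 scaled tags.

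With regions found in any library counted, 8 of them followed each other from 69449298 to 69453000, a run of 3703 bases with gaps of at most 1000 bases. Counting recurrent regions alone, the longest run was 2 regions of 680 bases, and with gaps of at most 2000 bases it was 4. The gap before chr10:69454011-69454109 was 1010 bases. A pair of regions in the run was found in m6A IP 1 and 2 but not called in m6A IP 3: chr10:69451291-69451379 at 33 and 37 tags, and chr10:69452162-69452264 at 27 and 28 tags. For scale, the longest exon of Ank3 in GENCODE M21 is 7674 bases and the longest of Nfasc, the last exon of its transcript, is 5962 bases. Whether the run at Ank3 or the pair at Nfasc lies in these exons was not tested.

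**Figure D2:**
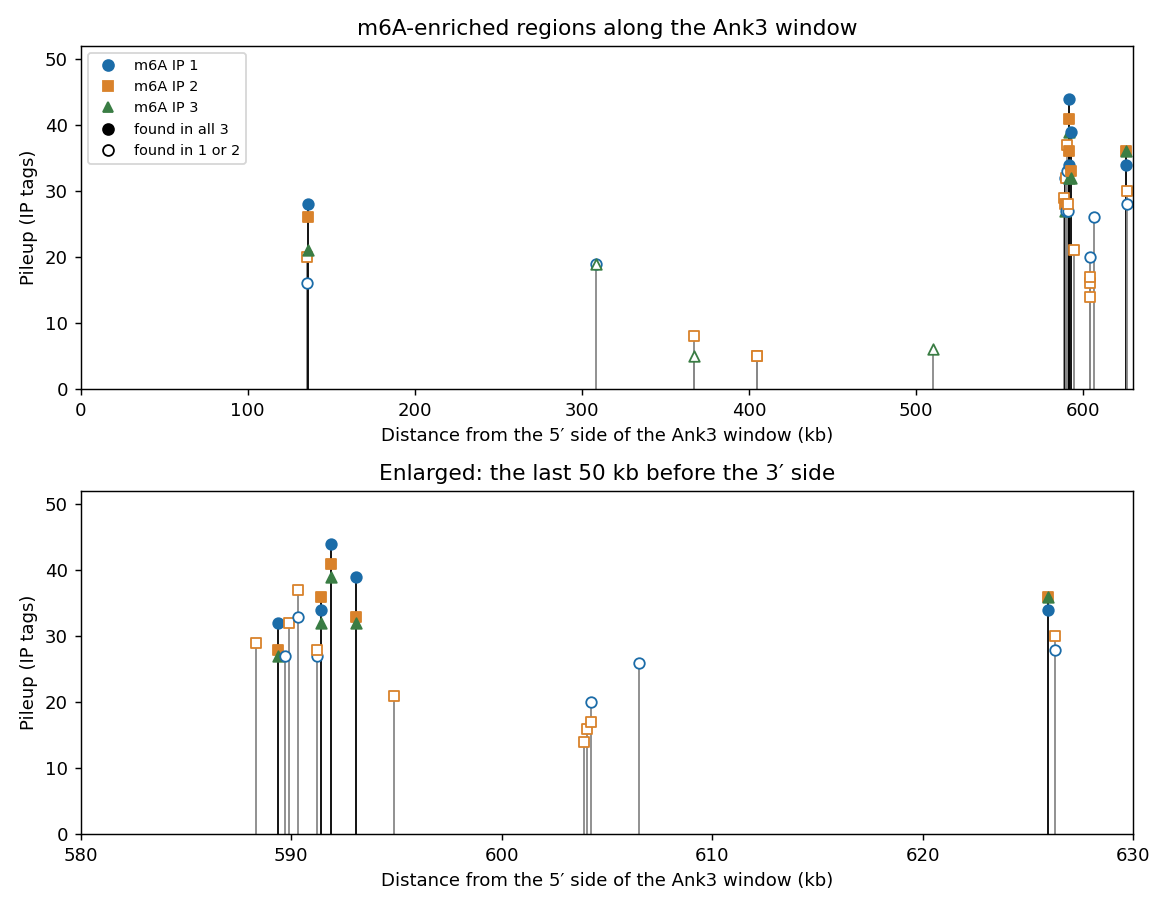
Pileup in IP tags (vertical axis) of every m6A-enriched region against its distance in kb from the 5′ side of the Ank3 window (horizontal axis), with the last 50 kb enlarged in the lower panel. Symbols stand for the 3 IP libraries, filled where the region was found in all 3, and the tallest region reaches 39 to 44 tags.

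Outside this stretch, Ank3 had 1 recurrent region at each side. Near the 3′ edge, 4.002 kb from it, chr10:69486926-69486998 (73 bases) had pileups of 34, 36 and 36 tags, a mean of 35.3 ± 1.15 (SD, n = 3), with summits within 2 bases. Its folds were 2.99, 3.18 and 2.78, a mean of 2.98 ± 0.201, the smallest spread of the 11 recurrent regions. Its neighbour chr10:69487252-69487328 was found in m6A IP 1 and 2 at 28 and 30 tags. Far to the 5′ side, 135.8 kb from that edge, chr10:68996794-68997003 (210 bases) had pileups of 28, 26 and 21 tags and folds of 4.08, 5.49 and 4.07. Its mean fold of 4.55 ± 0.813 was the highest among recurrent Ank3 regions, over a background of 6.11, 3.92 and 4.40 scaled tags. Beside it, 17 bases away, chr10:68996654-68996776 was found in m6A IP 1 and 2 at 16 and 20 tags. It held the highest −log10 q among Ank3 regions that did not recur in all 3, 9.46 in m6A IP 2.

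The middle of the Ank3 window held a different kind of region, with few tags over an almost empty input. The 5 regions from chr10:69227908-69227965 to chr10:69371304-69371369 were each found in 1 library, at pileups of 5 to 8 tags and folds of 5.10 to 6.60. Their backgrounds were 0.174 to 0.364 scaled tags, and for both regions at chr10:69265548-69265597 and chr10:69265651-69265700 the background was the genome average of m6A IP 2. These folds are above the mean fold of each recurrent Ank3 region, yet each was found in 1 library. Of these regions, chr10:69227908-69227965 (m6A IP 2) and chr10:69228048-69228098 (m6A IP 3) lay in a stretch of 191 bases. Joining peaks within 100 bases would merge them into a region found in both libraries. The remaining region of the middle, chr10:69169328-69169441, was found in m6A IP 1 and 3 at 19 tags in each, with folds of 2.81 and 2.79.

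**Figure D3:**
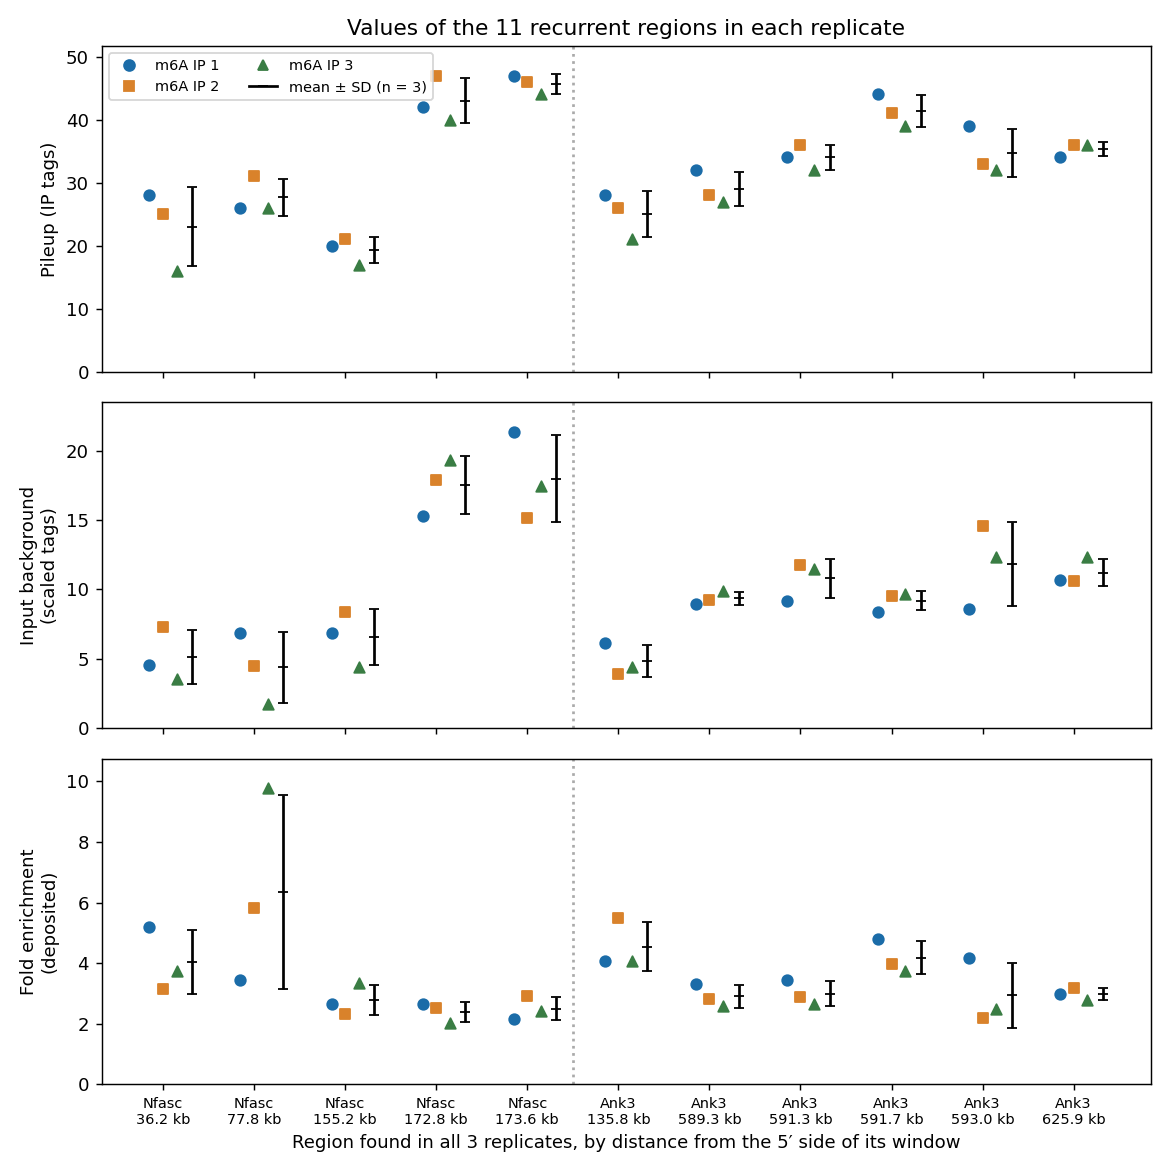
Pileup in IP tags, input background in scaled tags and deposited fold enrichment (3 vertical axes) for the 11 regions found in all 3 replicates, ordered by gene and by distance from the 5′ side (horizontal axis). Symbols are the 3 libraries and black bars the mean ± SD (n = 3). In 10 of the 11 the pileup has a lower coefficient of variation than the fold, which also depends on the input background. The fold of the Nfasc region at 77.8 kb runs from 3.43 to 9.78.

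Across the 11 recurrent regions, the pileup mostly varied less between libraries than the fold, which is computed from the pileup and the input background. The coefficient of variation of the pileup was below that of the fold in 10 of the 11, the exception being chr1:134603722-134603841. Median coefficients were 10.4% for pileup and 18.2% for fold at Nfasc, and 7.61% and 13.3% at Ank3, beside 9.94% and 20.5% over all recurrent regions of the genome. For the background they were 30.8% at Nfasc, 10.9% at Ank3 and 25.1% over the genome, and the fold also depends on that spread. The share of all recurrent regions with the lower coefficient in pileup was not computed, so the count says nothing particular to the genes. Pileup was lowest, or tied for lowest, in m6A IP 3 in 10 of the 11, although that library did not have the fewest tags. This order is not particular to the 2 genes. Over all recurrent regions of the genome, the median pileup of the peaks was 24, 25 and 22 tags in m6A IP 1, 2 and 3. Summits lay within 50 bases, the length of 1 tag, in all 6 recurrent Ank3 regions and in 3 of the 5 at Nfasc. The others were the broad 3′ pair, with spreads of 316 and 150 bases. The first of these values depends on the choice between 2 peaks of m6A IP 3, both at 44 tags: with the summit at 134466024 in place of 134466259 it is 86 bases. Merged peaks had to overlap, and regions as short as 68 and 73 bases leave summits little room to differ. Close summits are thus partly fixed by the merging, and the share over all recurrent regions was not computed.

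Taken over all input levels and at the authors' threshold, peaks of both genes had a higher median pileup and a lower median fold than their list. The median pileup of the Nfasc peaks was 26, 29 and 26 tags in m6A IP 1, 2 and 3, that of the Ank3 peaks 28, 28 and 27, and that of all peaks 19, 21 and 19. Median folds were 3.69, 2.69 and 2.86 at Nfasc and 3.15, 3.18 and 2.79 at Ank3, against 4.78, 4.58 and 4.55 over all peaks. The input background was 6.87, 10.1 and 7.04 scaled tags at Nfasc and 8.57, 8.40 and 9.69 at Ank3, against 3.05, 3.36 and 3.13. For each measure, all 3 lists put both genes on the same side of all peaks, with no overlap. An exact sign-flip permutation test over the 3 lists (two-sided) gave p = 0.25 for each of these 6 differences, the smallest that 3 lists allow, and 0.469 after Benjamini-Hochberg adjustment over 15 comparisons.

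Set beside peaks with a similar input, the gap in fold was smaller and Ank3 peaks were no longer taller. Among peaks with a background of 8 to 16 scaled tags, a range picked after the data were seen, the Ank3 median fold was 3.15, 2.89 and 2.65, against 2.93, 2.95 and 2.79 over all such peaks. These rest on 10, 10 and 5 Ank3 peaks, and the mean difference was 0.0075 ± 0.191 (SD, n = 3), on both sides of 0. The 2 and 4 Nfasc peaks of m6A IP 1 and 2 in this range had median folds of 2.68 and 2.32, below all such peaks in both lists. At 4 to 8 tags, where each gene had 2 to 4 peaks in a list, Nfasc stood at 3.56, 4.49 and 3.10 against 3.96, 3.94 and 3.82, on both sides of all peaks. Ank3 stood at 3.29, 3.10 and 3.43 in the same range, below all peaks in each list. Its median pileup there was 19.5, 17 and 20 tags against 26, 26 and 25 over all such peaks, and at 8 to 16 tags it was 32.5, 32.5 and 32 against 34, 34 and 33. For Nfasc it was 27, 28 and 19.5 at 4 to 8 tags, and with 8 to 16 tags it was 38.5 in m6A IP 1 and 29 in m6A IP 2, on both sides of all such peaks. Most peaks of the tall Nfasc pair at the 3′ side fell in neither range, with backgrounds of 17.5 to 21.4 scaled tags. They were not set beside peaks of similar input.

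**Figure D4:**
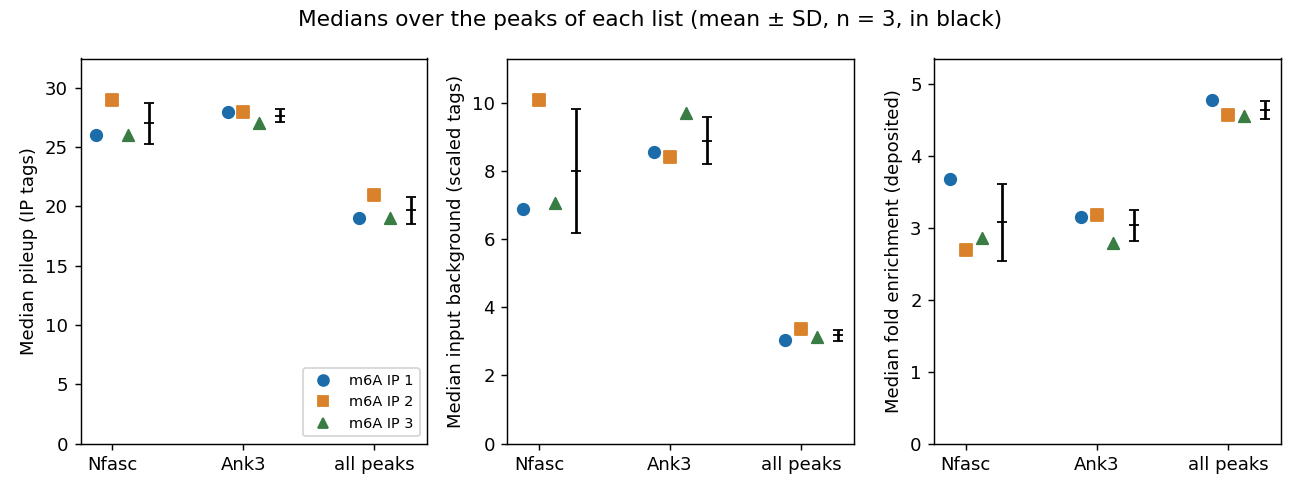
Median pileup in IP tags, input background in scaled tags and deposited fold enrichment (vertical axes) over the peaks of Nfasc, Ank3 and the whole list, 1 symbol per library with the mean ± SD (n = 3) in black. Nfasc and Ank3 peaks have higher pileup and input and a lower fold than all peaks in each library.

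Between the 2 genes, the mean differences over the 3 lists were smaller than their SD. Nfasc minus Ank3 was −0.667 ± 1.53 tags for the median pileup, 0.0375 ± 0.510 for the fold and −0.886 ± 2.27 tags for the background (SD, n = 3). The exact sign-flip permutation p was 0.75, 0.75 and 0.5 (adjusted 0.804, 0.804 and 0.625 by Benjamini-Hochberg), in a design whose smallest p is 0.25. Without m6A IP 2 the differences were −2.17 tags in background and −1.5 tags in pileup, and without m6A IP 3 that in background was −0.0087 tags, so single libraries moved these values and no likeness of the genes is shown.

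Few regions of either gene met a stricter threshold. A −log10 q of at least 10 in any library was reached by 1 of 13 Nfasc regions and 2 of 24 Ank3 regions, beside 25.4% of all regions. They were chr1:134562093-134562160 (12.3 and 17.0 in m6A IP 2 and 3), chr10:69452740-69453000 (13.8 and 10.2 in m6A IP 1 and 2) and chr10:69454011-69454109 (10.3 in m6A IP 1). A fold of at least 4 in any library was reached by 4 and 9 regions, beside 73.3% of all regions. With folds of at least 4 required in every library, chr10:68996794-68997003 was the recurrent region kept. These thresholds act on the same measures that rank the peaks, so the counts describe the members and are no separate test.

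From general knowledge of the study, whose paper was not read here, Nfasc is among the transcripts described as differently spliced when oligodendrocytes lack Mettl14, a subunit of the m6A methyltransferase. Of that statement, the lists bear on 1 part: whether Nfasc RNA carries m6A in brain. They place 5 recurrent regions in the Nfasc window, a tall pair at the 3′ side and 3 short ones spread over 119.1 kb of the gene. The pair had low mean folds, and 2.24% and 1.52% of the recurrent regions of the genome were lower. The 5 fell to 3 with lists of equal length, or with peaks sharing at least 50% of each other's length. With a −log10 q of at least 10, or a fold of at least 4, in every list they fell to 0. The lists hold 1 condition and no counts across splice junctions, so splicing, and its relation to these regions, was not tested. The RNA came from whole brain, so the regions cannot be assigned to the glial or the neuronal form of neurofascin. GENCODE M21 lists 10 Nfasc transcripts with 51 distinct exons, and 47 Ank3 transcripts with 130.

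The sequences under the regions were not read, since no genome of the mm9 build was used here. As a description of the transcripts, the letters GGACT, the DNA form of the core of the known m6A consensus, were counted on the sense strand of each gene's longest protein-coding transcript in GENCODE M21. The Nfasc transcript of 9739 bases held 15, or 1.54 per kb, and the Ank3 transcript of 9963 bases held 8, or 0.803 per kb. Over 21901 genes the median was 1.01 per kb (quartiles 0.560 and 1.504), and 87.6% of these transcripts held at least 1 match. The longest exon of Nfasc held 10 matches, 1.68 per kb, and that of Ank3 3, 0.391 per kb. A match of these letters is not a methylated site, and no match was placed relative to a region.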

How the data were processed

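Peaks were called by the authors in each replicate with MACS 2.1.0.20151222, 1 IP against 1 input, with a q-value cutoff of 0.05, 50-base tags and at most 1 tag per position, per the file headers. The submitters' processing notes name TopHat2 2.1.0, MACS2 2.1.0 and mm9. The deposited pileup is a coverage signal, the fold enrichment a ratio, and peak strength −log10 p-value and −log10 q-value, per the file headers. Positions and lengths are deposited in bases.

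Groups came from the sample titles. The members, lists and rules were chosen with earlier results of these data known. The background was recovered as (pileup + 1) / fold − 1, and a Poisson tail probability above the pileup matched the −log10 p-value deposited by the authors within 6.71e-05. A region's pileup and fold are the highest among its peaks in a list, and its background is that of the peak with the highest fold. All recurrent regions were named, since each window held at most 12. Other regions were named by the highest −log10 q, and the rest after their values were seen. Merging was tested on simulated peaks of equal length that lay far apart. Close neighbours, and regions with several peaks of the same list, were not covered by that check. Other genes of the node could not be placed without an mm9 annotation and were not analysed here. Alternatives changed the peak threshold, overlap, list length, gap and replicates. Computation used scipy 1.17.1, pandas 2.3.3, numpy 2.4.6, matplotlib 3.10.9 and Python 3.11.15. Wilson and exact Poisson intervals cover counting error only.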

Additional observations from a re-analysis of the deposited data

How the results depend on the processing

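With a −log10 q of at least 10, regions fell from 13 to 1 at Nfasc and from 24 to 2 at Ank3, and those in all 3 replicates to 0 and 0. With a fold of at least 4, regions numbered 4 and 9, those in all 3 numbered 0 and 1, and the longest runs 0 and 1. Regions in all 3 at Nfasc fell to 3 with lists of equal length and to 3 when peaks had to share at least 50% of each other's length; chr1:134465910-134466352 was lost under both. Equal lists also lost chr1:134484744-134484845, chr10:69450280-69450474 and chr10:69454011-69454109, and the stricter overlap chr1:134603722-134603841 and chr10:69452740-69453000. With 2 replicates enough, Ank3 had 12. With peaks within 100 bases joined, regions numbered 13 at Nfasc and 18 at Ank3, and those in all 3 stayed at 5 and 6. Leaving out each replicate in turn gave 9 to 12 regions at Nfasc and 16 to 22 at Ank3, of which 5 to 7 and 6 to 11 were found in both other lists. The 11 came without replicate 3, the shortest list. The longest Ank3 run of 2 became 4 with gaps of at most 2000 bases and 8 with regions found in any replicate.

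With a fold of at least 4, which left 3, 1 and 1 Nfasc peaks in m6A IP 1, 2 and 3, differences rest on very few peaks. Nfasc minus Ank3 in median pileup became 6.33 ± 26.3 (SD, n = 3) there and ranged from −1.5 to 0 without 1 replicate. In median fold it became 2.14 ± 2.26 (SD, n = 3) with a fold of at least 4, −0.349 in regions found in all 3 and ranged from −0.210 to 0.300 without 1 replicate. In background it ranged from −2.17 to −0.0087 without 1 replicate. Nfasc minus all peaks in median fold became 1.45 with a fold of at least 4 and 0.111 with a −log10 q of at least 10, where few Nfasc peaks are left. In median pileup, Nfasc minus all peaks fell from 7.33 to 1.5 ± 2.12 (n = 2) with a −log10 q of at least 10, and Ank3 minus all peaks from 8 to 1.33 ± 17.9 with a fold of at least 4. In background, the same settings took them from 4.82 to 0.400 and from 5.71 to 1.34. In median fold, Ank3 minus all peaks went from −1.60 to 0.0075 at a background of 8 to 16 tags. At that background m6A IP 3 held 0 Nfasc peaks, so Nfasc has no value there. The comparisons with all peaks under other settings were added after the data were seen. No paired analysis was possible because the lists hold no IP and input read counts per feature to which a replicate block could be fitted; only differences within lists were tested. With pileups near 20 tags, small differences between libraries are not detectable at this depth.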
